A study of Homo sapiens with 12 samples.

Results

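Long noncoding RNAs are transcripts with little or no protein-coding capacity, and the 10 described here, MALAT1, NEAT1, H19, GAS5, SNHG1, MEG3, UCA1, HOTAIR, PVT1 and TUG1, are among those most often named in cancer studies. Their members on the array were chosen by gene name: 56 of the 50599 noncontrol probes carried one of these names, which covered 10 of 36603 gene names. The number of probes per gene ranged from 1 for GAS5 and UCA1 to 11 for PVT1 and 12 for TUG1. In all, 55 of the 56 probes passed the filter on dim values (well above background on at least 3 of 12 arrays), and 1 HOTAIR probe did not. Single-colour expression microarrays had been hybridised with RNA of 3 human lung cancer lines: A549 (lung adenocarcinoma), PC14 (lung adenocarcinoma) and PC14CDDP, the cisplatin-resistant counterpart of PC14. Each line received 4 transfections at 25 nM with the same lipid reagent, and 1 array was made for each line and transfection. The oligonucleotides were pre-miR-197, a precursor that supplies the microRNA miR-197, with its negative control NC (AllStar-NC in the labels), and LNA-miR-197, a locked nucleic acid inhibitor of miR-197, with its control LNA-NC. All 12 cultures carried an oligonucleotide, so no untransfected array served as a baseline. Each group of a transfection thus held 3 arrays from 3 lines, and each group of a line held 4 arrays of differently transfected cultures, so p-values between lines measured the spread between cultures of 1 line each.

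The arrays were of similar depth: 55.8% to 63.0% of probes were well above background, and no spot was saturated. The 4 A549 arrays lay on 1 slide and the other 8 on a second, so differences of A549 from the other lines and differences between slides cannot be told apart. Every transfection occupied the same column of its slide, so transfection and position cannot be told apart either. Among epithelial markers, KRT8 and KRT18 were well above background on all 12 arrays, whereas EPCAM was so on 4 of 4 A549, 3 of 4 PC14 and 0 of 4 PC14CDDP arrays, and CDH1 on 4, 2 and 0. Of 5 markers of the lung adenocarcinoma lineage, NAPSA and SFTPC were well above background on all 12 arrays, NKX2-1 on all PC14 and PC14CDDP arrays and no A549 array, SFTPA1 on 1 PC14 array and SFTPB on none. Of 9 markers of leukocytes, endothelium and fibroblasts, PTPRC, VWF, CDH5 and COL1A1 were well above background on all 12 arrays, at log2 levels between -4.81 and 0.10, and COL1A2 and DCN on none. PECAM1 was well above background on 4 of 4 PC14 and 0 of 4 PC14CDDP arrays, and COL1A1 fell after LNA-miR-197 (difference from LNA-NC -1.04, adjusted p = 0.0431), a call lost when any 1 line was left out. Their part in the differences below was not tested.

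MALAT1 and NEAT1 are neighbouring genes whose RNAs stay in the nucleus, in speckles and paraspeckles respectively. NEAT1 is made as a short, polyadenylated transcript and as a long one that runs on past the short one's end and builds the paraspeckle. H19 and MEG3 are expressed from the maternal copy of imprinted loci, GAS5 and SNHG1 are spliced host genes whose introns carry small nucleolar RNAs and whose exons are degraded during translation by nonsense-mediated decay, and UCA1 is named for urothelial cancer and was also described in drug-resistant tumour cells. HOTAIR is transcribed from the HOXC cluster and TUG1 was first described as a gene induced by taurine in the developing retina.

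The sequences below are those that carried the differences described in the following paragraphs. In the mature miR-197-3p sequence, credited to RefSeq, capitals mark the seed (bases 2 to 8). The 60-base probes are read 5′ to 3′ in the sense of the RNA, as the scanner files give them, with hg19 positions. In the NEAT1 probes capitals mark the 19 bases that both probes share, so their values are not independent. In HOTAIR capitals mark the letters GTGGTGA, which pair with the miR-197-3p seed, and elsewhere capitals mark AATAAA, the usual polyadenylation signal.
hsa-miR-197-3p: uUCACCACcuucuccacccagc
UCA1 (chr19:15946035-15946092, plus strand): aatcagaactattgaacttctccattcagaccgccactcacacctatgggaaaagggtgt
NEAT1 (chr11:65192168-65192227, plus strand): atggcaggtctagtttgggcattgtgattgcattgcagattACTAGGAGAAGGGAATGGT
NEAT1 (chr11:65192209-65192268, plus strand): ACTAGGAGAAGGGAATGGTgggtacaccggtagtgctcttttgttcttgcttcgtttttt
TUG1 (chr22:31375277-31375336, plus strand): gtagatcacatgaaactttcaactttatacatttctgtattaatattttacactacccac
H19 (chr11:2016674-2016733, minus strand): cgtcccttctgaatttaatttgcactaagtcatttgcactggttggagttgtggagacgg
MEG3 (chr14:101327286-101327345, plus strand): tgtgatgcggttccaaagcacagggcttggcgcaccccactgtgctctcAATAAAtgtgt
GAS5 (chr1:173833049-173833108, minus strand): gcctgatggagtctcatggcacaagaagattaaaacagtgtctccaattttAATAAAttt
SNHG1 (chr11:62619573-62619632, minus strand): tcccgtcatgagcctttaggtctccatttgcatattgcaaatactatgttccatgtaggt
MALAT1 (chr11:65267042-65267101, plus strand): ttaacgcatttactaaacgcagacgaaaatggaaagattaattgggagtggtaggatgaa
MALAT1 (chr11:65273871-65273930, plus strand): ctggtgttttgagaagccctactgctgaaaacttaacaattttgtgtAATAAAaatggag
HOTAIR (chr12:54356096-54356155, minus strand): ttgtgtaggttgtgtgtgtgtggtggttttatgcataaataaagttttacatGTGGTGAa
The letters AATAAA stood in 5 of the 56 probes and in 7.88% of all probes, and their reverse complement in 2 of 56 and 3.74%. GTGGTGA stood in 1 of 56, the HOTAIR probe above, and in 0.510% of all probes (reverse complement 0 of 56 and 0.419%). These windows cover a small stretch of each RNA, and a match is a description of the letters only.

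UCA1 differed most between the parental and the resistant line. Levels here and below are on a log2 scale, with 0 at the upper quartile (75th percentile) of the noncontrol spots on that array, and each is set only against the same probe on other arrays. In bulk RNA such as this, fewer cells of a kind and less RNA per cell cannot be told apart. In PC14CDDP the single UCA1 probe stood at 3.33 after NC, 2.29 after pre-miR-197, 2.96 after LNA-NC and 1.89 after LNA-miR-197. In PC14 it stood at -5.27, -5.64, -4.50 and -3.42 in the same order, and in A549 at -5.27, -5.60, -6.19 and -5.04, where 3 of the 4 arrays were well above background. The PC14CDDP arrays lay above all others without overlap, and PC14 and A549 overlapped. The mean difference of PC14CDDP from PC14 was 7.32 ± 0.49 (SE, n = 4 arrays each), a 160-fold higher signal (limma adjusted p = 1.28e-05). Against A549 the signal was 282-fold higher (adjusted p = 1.83e-06), whereas A549 and PC14 differed by -0.81 ± 0.49 (adjusted p = 0.176). In linear units the UCA1 signal was 14.1 to 67.0 in PC14 and 9.47 to 21.5 in A549. The faintest signals that counted as well above background were 7.61 to 10.1 and 9.03 to 10.3 there. Both folds thus rested on dim values. A probe of another name on the same strand, for XLOC_012981 at chr19:15947002-15947061, lay 910 bases beyond the UCA1 probe and was chosen after its values were seen. It was well above background on 4 of 4 PC14CDDP arrays, at -1.65 to -0.09, on 1 of 4 PC14 arrays and on 0 of 4 A549 arrays. A second XLOC_012981 probe, with one end at chr19:15939826, was well above background on 0 of 4 PC14CDDP arrays and 3 of 4 PC14 arrays. CYP4F3, a cytochrome P450 gene of the cluster beside UCA1 but not its direct neighbour, was also higher in PC14CDDP than in PC14. The difference was 3.41 ± 0.52 (adjusted p = 0.000854).

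**Figure D1:**
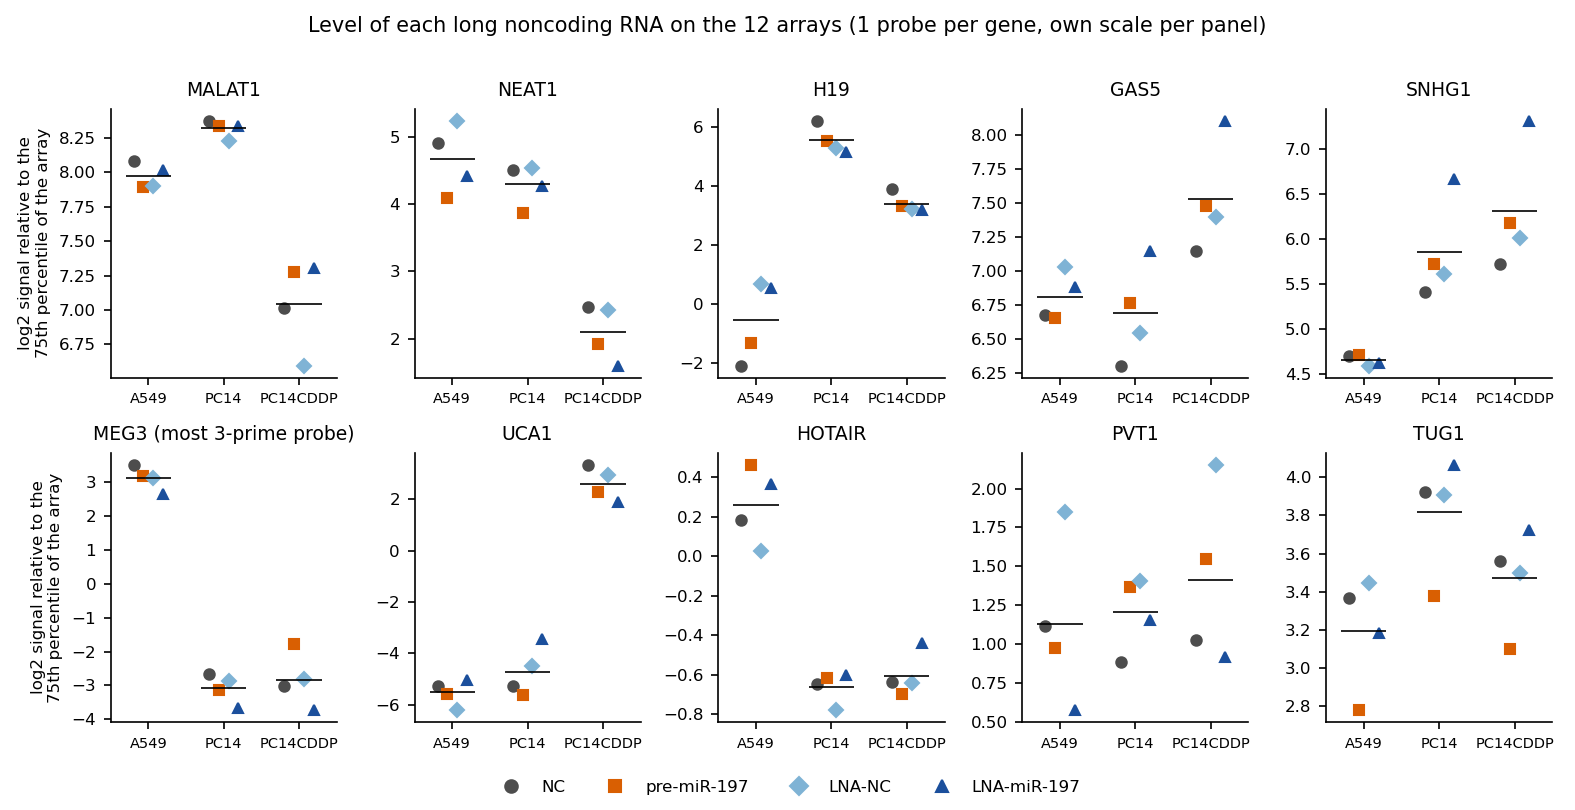
Each panel plots 1 probe of a gene (the brightest, and for MEG3 the most 3′ one) in the 3 lines, with the 4 transfections as symbols and the line mean as a bar; the y axis is the log2 level, 0 being the upper quartile of the array, with its own scale in each panel. UCA1 is high only on the 4 PC14CDDP arrays (1.89 to 3.33), MEG3 only on the 4 A549 arrays (2.67 to 3.51), and TUG1 is lowest after pre-miR-197 in each line.

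Across all 10 genes, 33 of the 55 tested probes were called between PC14CDDP and PC14 at a Benjamini-Hochberg adjusted p under 0.05, 6 higher and 27 lower in PC14CDDP, where 48.8% of all 33712 tested probes were called. The 27 lower probes belonged to 5 genes: 8 of 8 for MALAT1, 4 of 6 for NEAT1, 2 of 2 for H19, 5 of 8 for HOTAIR and 8 of 12 for TUG1. Of the 5 HOTAIR probes, 4 were well above background on 0 of 4 PC14CDDP arrays and passed the filter through the PC14 arrays, so that they had to differ. The 6 higher ones were UCA1, GAS5 and 4 of 11 PVT1 probes. No probe of SNHG1 or MEG3 was called. For A549 against PC14, 43 of 55 were called (11 higher, 32 lower in A549), where 67.4% of all probes were. Some HOTAIR probes were well above background on 3 or 4 PC14 arrays but on only 0 or 1 A549 arrays. These passed the filter mainly through PC14, so a lower value in A549 was favoured in advance. For A549 against PC14CDDP the count was 40 of 55 (20 higher, 20 lower), where 70.1% of all probes were, and 2 of the 20 higher were HOTAIR probes dim on all 8 arrays. The MEG3 probe at chr14:101297360-101297419 and the SNHG1 probe at chr11:62619488-62619547 were called higher in A549 in both comparisons. They were well above background on 4 of 4 A549 and 0 of 4 PC14CDDP arrays. Both passed the filter mainly through A549, so a higher value there was favoured in advance. The same shares of all probes stand behind the counts for other gene lists below. Calls were thus common among all probes, and several probes read the same RNA, so these counts are a description of the members only.

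**Figure D2:**
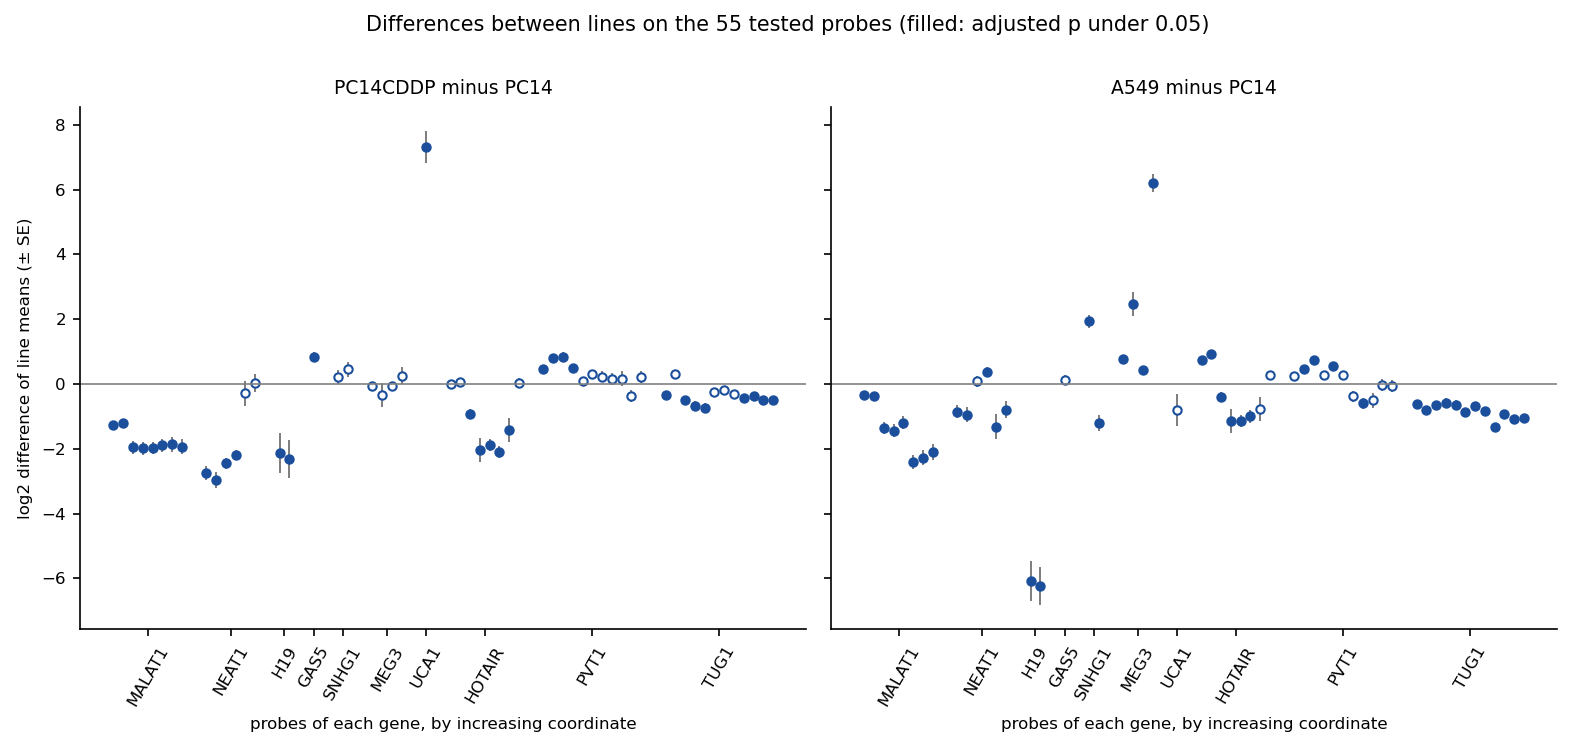
Points are the 55 tested probes grouped by gene and ordered by coordinate within it, with the log2 difference of the line means on the y axis and bars of 1 SE; filled points had an adjusted p under 0.05. UCA1 (7.32) stands apart in PC14CDDP minus PC14, and H19 (-6.07 and -6.25) and the most 3′ MEG3 probe (6.21) in A549 minus PC14.

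H19 and MEG3, the 2 imprinted genes, placed A549 at opposite ends: H19 was lowest there and MEG3 highest. H19 gives rise to the microRNA miR-675 and shares its locus with the growth factor gene IGF2. Its brighter probe stood in PC14 at 6.19 after NC, 5.52 after pre-miR-197, 5.29 after LNA-NC and 5.13 after LNA-miR-197, in PC14CDDP at 3.89, 3.31, 3.21 and 3.19, and in A549 at -2.08, -1.32, 0.69 and 0.56. The 3 lines did not overlap, in the order PC14, PC14CDDP, A549. PC14CDDP was lower than PC14 (log2 difference -2.13, SE 0.62, a 4.39-fold lower signal, adjusted p = 0.0204), and without the pre-miR-197 arrays this call was lost (adjusted p = 0.0795). The other H19 probe, at chr11:2016961-2017020, was 4.97-fold lower (adjusted p = 0.0114). A549 was 67.2-fold and 76.1-fold lower than PC14 on the 2 probes (adjusted p = 4.37e-05 and 2.73e-05). Within A549 the spread was wide (SD 1.38, against 0.47 in PC14), and both arrays with LNA oligonucleotides lay above the NC and pre-miR-197 arrays. A549 gave a log2 ratio of LNA-NC to NC of 2.77, whereas the ratio was -0.90 for PC14 and -0.68 for PC14CDDP. The mean over lines, 0.40 ± 0.71 (SE), was not called (adjusted p = 0.859), and 1 array per line and transfection leaves no test of the difference between lines.

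MEG3, a transcript described as a growth suppressor, was highest in A549 on all 4 probes. Its most 3′ probe read 3.51, 3.19, 3.13 and 2.67 in A549 (NC, pre-miR-197, LNA-NC, LNA-miR-197), -2.65, -3.15, -2.88 and -3.66 in PC14, and -3.01, -1.77, -2.81 and -3.72 in PC14CDDP. A549 was 74.0-fold above PC14 and 61.9-fold above PC14CDDP (adjusted p = 3.49e-07 and 3.77e-07), and PC14 and PC14CDDP overlapped (difference 0.26 ± 0.27, adjusted p = 0.472). The probes at chr14:101295974-101296033 and chr14:101325072-101325131 were higher in A549 by only 1.70-fold and 1.35-fold over PC14 (adjusted p = 0.000166 and 0.00621), so the size depended on the probe. The probe at chr14:101297360-101297419 was well above background on 4 of 4 A549, 1 of 4 PC14 and 0 of 4 PC14CDDP arrays, at least 4.64-fold higher in A549 than in PC14CDDP. It passed the filter through the A549 arrays. Such a bound replaces each dim array's value, where lower, by the faintest signal on that array that still counted as well above background. After LNA-miR-197 the most 3′ probe lay below LNA-NC in all 3 lines, with log2 ratios of -0.46, -0.78 and -0.91 in A549, PC14 and PC14CDDP, but the mean of -0.72 ± 0.31 was not called (adjusted p = 0.181).

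Of 11 other measured imprinted genes from the wider regions around H19 and MEG3, 0 were higher and 5 lower in PC14CDDP than in PC14. In that comparison 48.8% of all probes were called. The median log2 difference of the 11 genes was -0.61, beside 0.04 over all probes. IGF2 differed by -2.60 ± 0.35 (adjusted p = 0.000456), DIO3, the thyroid-hormone-inactivating deiodinase of the MEG3 locus, by -2.62, the potassium channel gene KCNQ1 by -2.92 and its antisense RNA KCNQ1OT1 by -2.26. In A549 against PC14, 5 were higher and 2 lower, where 67.4% of all probes were called. Neither count stood above the share of all probes. MEG8, another noncoding RNA of the MEG3 locus, was higher in A549 by 2.91 (adjusted p = 2.45e-06), and IGF2 was higher too (adjusted p = 0.00506), the opposite direction to H19. Against PC14CDDP, 7 were higher and 2 lower in A549, IGF2 by 4.10.

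MALAT1 was highest in PC14 on each of its 8 probes. The probe nearest its 5′ end stood in PC14 at 8.37, 8.34, 8.23 and 8.34 (NC, pre-miR-197, LNA-NC, LNA-miR-197), in A549 at 8.08, 7.90, 7.90 and 8.01 and in PC14CDDP at 7.01, 7.27, 6.60 and 7.30. No arrays overlapped between lines on this probe. PC14CDDP was lower than PC14 on 8 of 8 probes, 2.30-fold to 3.95-fold, with the smallest differences at the 2 most 5′ probes (-1.27 and -1.20) and -1.86 to -1.98 at the other 6. A549 was lower than PC14 on 8 of 8 probes too, but unevenly along the gene: -0.35 and -0.37 at the 2 most 5′ probes, -1.19 to -1.44 at the next 3 and -2.11 to -2.41 at the 3 most 3′ ones. The call at the first of these probes was lost without the NC arrays (adjusted p = 0.102), without the pre-miR-197 arrays (0.101), without the LNA-miR-197 arrays (0.0741) and with no filter (0.0646). Between A549 and PC14CDDP the order turned along the gene, with A549 higher on the first 5 probes (0.54 to 0.93, 5 called) and -0.52 to -0.17 on the last 3 (0 called).

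The transfections left MALAT1 without a call in any of the 3 comparisons, and the 3 most 3′ probes gave another picture than the 5 upstream ones. In A549 their ratios after pre-miR-197 were -0.87 to -0.63 and after LNA-miR-197 -0.97 to -0.81, whereas in PC14CDDP they were 0.18 to 0.37 and 0.33 to 0.53. The 5 upstream probes ranged from -0.40 to -0.18 and from -0.28 to 0.11 in A549, and from 0.26 to 0.76 and from 0.36 to 0.71 in PC14CDDP. On the 3 most 3′ probes LNA-NC stood above NC by 0.56 to 0.75 in A549. Part of the A549 distance between LNA-NC and LNA-miR-197 on them thus lay between the controls. The split into these probe groups was made after the values were seen. Of 5 probes on the opposite strand within 10 kb of a MALAT1 probe (4 named LOC100507645 and 1 named XLOC_009474), all were well above background on 12 arrays. Between PC14CDDP and PC14 their line means differed less than those of MALAT1, by -0.74 to 0.46, but with calls in both directions. The called probes differed by 0.46, 0.41 and -0.74 (adjusted p = 0.00485, 0.0204 and 0.00116). Between A549 and PC14 the called ones differed by 0.64, 0.35 and -0.38 (adjusted p = 0.000489, 0.0167 and 0.0208). Of 11 nuclear speckle protein genes, 2 were higher and 2 lower in PC14CDDP than in PC14, among them SRSF2 (0.60) and PNN (-0.42), and in A549 1 was higher and 6 were lower than in PC14, with SRSF5 at -1.13 and ACIN1 at -1.02. LNA-miR-197 raised ACIN1 over LNA-NC by 0.47 ± 0.11 (adjusted p = 0.0451), the 1 call of that list, in a comparison where 7.99% of all probes were called. Leaving out any 1 line left 0 of 33712 probes called in this comparison, so that every LNA-miR-197 call described here was lost. With no line block 3 probes were called and with the slide as block 5. Of 10 genes of the machinery that cuts the MALAT1 3′ end, 5 were higher and 1 lower in PC14CDDP than in PC14. POP1, a protein of RNase P, was higher by 0.49 and RPPH1, its RNA subunit, differed by -0.50. POP1 was also higher after LNA-miR-197 by 0.43 ± 0.09 (adjusted p = 0.0346).

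NEAT1 separated into 2 sets of probes. The first 4 lie within the part common to the short and the long transcript, and the last 2 lie in the part of the long transcript alone. The brightest common probe stood in A549 at 4.91 after NC, 4.10 after pre-miR-197, 5.24 after LNA-NC and 4.42 after LNA-miR-197, in PC14 at 4.51, 3.87, 4.55 and 4.27 and in PC14CDDP at 2.47, 1.92, 2.42 and 1.60. All 4 PC14CDDP arrays lay below the other 8. The 4 common probes were 4.57-fold to 7.79-fold lower in PC14CDDP than in PC14 (differences of -2.19 to -2.96, adjusted p from 1.09e-05 to 3.51e-05). The 2 long-transcript probes differed by -0.29 ± 0.38 and 0.03 ± 0.27 (adjusted p = 0.563 and 0.947). Against PC14CDDP, A549 was higher by 1.89 to 2.56 on the common probes and lower on both long-transcript probes (-1.02 and -0.82, adjusted p = 0.0381 and 0.0244). The 2 most 5′ probes (-0.85 and -0.95) and both long-transcript probes (-1.31 and -0.79) were lower in A549 than in PC14, and the brightest was higher by 0.37, a call lost without the NC arrays (adjusted p = 0.146), the pre-miR-197 arrays (0.0598) or the LNA-NC arrays (0.219), with no filter (0.0794) and with the adjusted test that the methods name (0.325).

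The same common NEAT1 probes were lower both after the mimic and after the inhibitor of miR-197, each against its own control. After pre-miR-197 their log2 ratios to NC were -0.89 to -0.78 in A549, -0.97 to -0.64 in PC14 and -0.55 to -0.34 in PC14CDDP. The 4 means, -0.67 to -0.76, were not called (adjusted p 0.133 to 0.267). After LNA-miR-197 the ratios to LNA-NC were -1.63 to -0.69, -1.36 to -0.25 and -1.17 to -0.65 in the same lines. Here the overlapping pair of probes shown above was called, with means of -1.15 ± 0.24 and -1.21 ± 0.28 (SE, n = 3 lines; limma adjusted p = 0.0330 and 0.0407), and the other 2 were not (adjusted p = 0.0727 and 0.0533). Both calls were lost when any 1 line was left out (adjusted p 0.132 to 0.270), with no filter (0.0663 and 0.0784) and with no line block (adjusted p of 1). On the 2 long-transcript probes the ratios ranged from -0.56 to 0.42 after pre-miR-197 and from -0.45 to 0.80 after LNA-miR-197, with no call. The levels of the called pair in LNA-NC were 1.01 and 1.04 in A549 and 1.71 and 1.72 in PC14, above NC by 0.73 to 1.27, so that part of the distance to LNA-miR-197 lay between the controls in those lines. LNA-NC is the control in one comparison and the group compared with NC in another, so the comparisons share arrays.

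**Figure D3:**
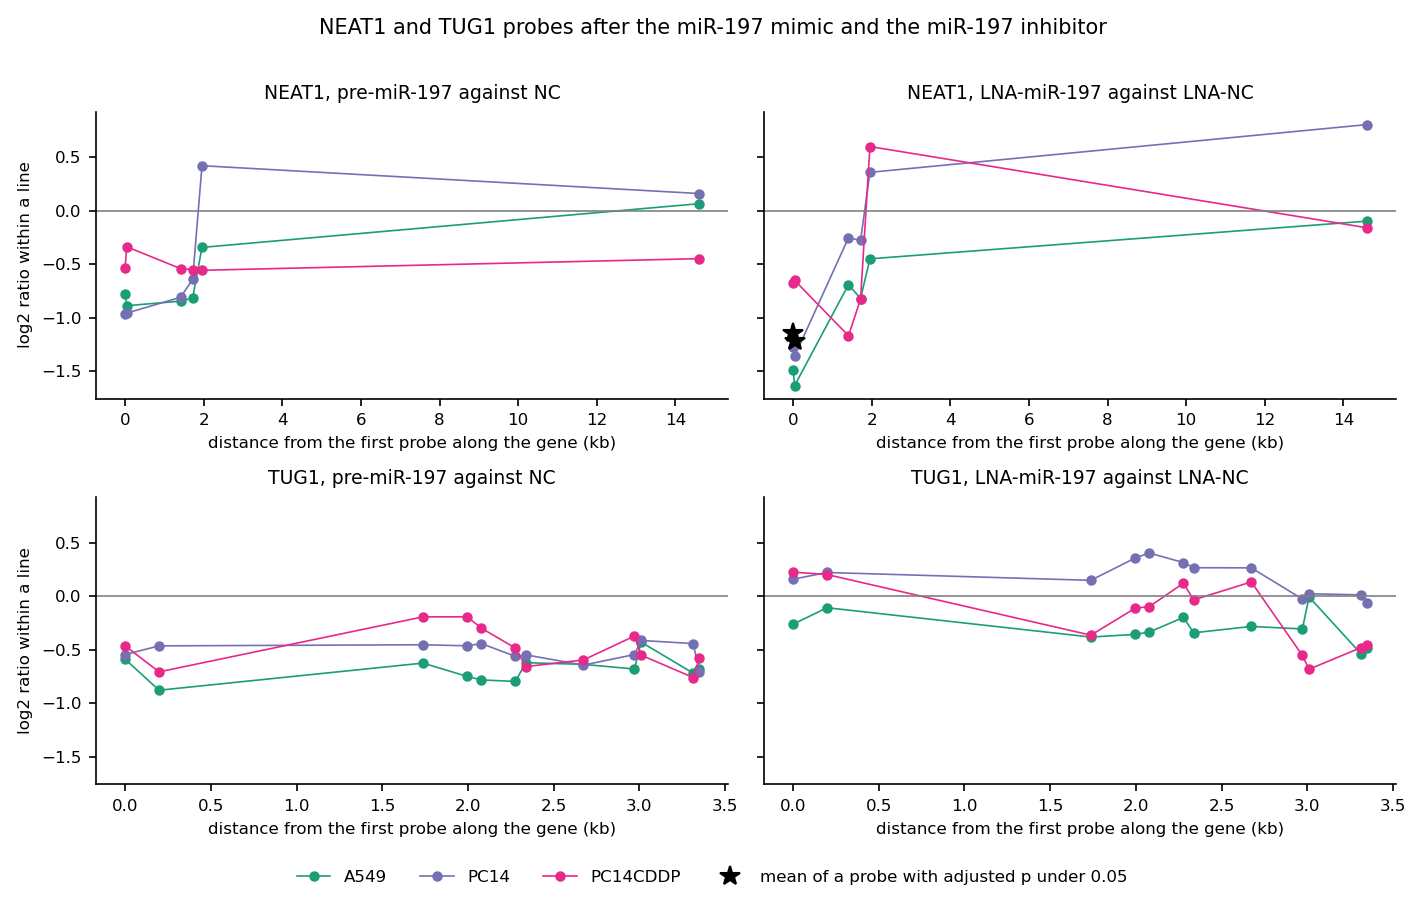
Log2 ratios of the treated array to its control in each line (coloured points) are plotted against the distance of the probe from the first probe of NEAT1 (top) or TUG1 (bottom) in kb; stars mark means with an adjusted p under 0.05. The 4 most 5′ NEAT1 probes lie below 0 in all 3 lines after both oligonucleotides, and the 12 TUG1 probes lie below 0 in all 3 lines after pre-miR-197 (-0.88 to -0.19).

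A probe on the strand opposite to NEAT1, named LOC100653017 (chr11:65193413-65193472), was well above background on 11 of 12 arrays and lower in the resistant PC14CDDP than in parental PC14 (log2 difference -2.34, adjusted p = 0.00133). Of the PC14CDDP arrays 3 of 4 measured it, and the fourth entered at its dim value of -7.45. Of 14 paraspeckle protein genes, 3 were higher and 1 lower in PC14CDDP than in PC14. NONO, one of the proteins that assemble on NEAT1, differed by -0.35 and HNRNPK by 0.75. In A549, 0 were higher and 6 lower than in PC14, with SMARCA4 at -1.64 and PSPC1 at -1.20. After LNA-miR-197, NUDT21, a polyadenylation factor (0.47 ± 0.09, adjusted p = 0.0292), and PSPC1 (0.40 ± 0.10, adjusted p = 0.0488) rose over LNA-NC, the 2 calls of that list. In this comparison 7.99% of all probes were called, and both calls were lost when any 1 line was left out.

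TUG1 carried the most uniform response to pre-miR-197 without reaching the threshold. Its brightest probe stood at 3.37 after NC, 2.78 after pre-miR-197, 3.45 after LNA-NC and 3.18 after LNA-miR-197 in A549, at 3.92, 3.38, 3.91 and 4.06 in PC14 and at 3.56, 3.096, 3.50 and 3.72 in PC14CDDP. In each line the pre-miR-197 array was the lowest of the 4. All 12 TUG1 probes were below NC in all 3 lines, where 19.6% of all tested probes were, and the 12 means ranged from -0.68 to -0.42. Each had an unadjusted p under 0.05, as 15.8% of all probes did, and adjusted p-values ran from 0.0715 to 0.232, so none was called. With the filter at all 12 arrays 8 TUG1 probes were called, with another background correction 7, and with a trended and robust variance 6. Calls rose over all probes too, to 570 of 24603, 636 of 33712 and 608 of 33712, from 29 of 33712 in the reported fit. The probes read 1 RNA and are not independent. After LNA-miR-197 the 12 means lay between -0.34 and 0.10 with no call, and between LNA-NC and NC between -0.06 and 0.17. TUG1 was also lower in A549 than in PC14 on 12 of 12 probes (-0.58 to -1.32) and lower in PC14CDDP than in PC14 on 8 of 12. On the brightest probe the latter call was lost without the NC (adjusted p = 0.0836), pre-miR-197 (0.0581) or LNA-NC arrays (0.0585) and with the adjusted test that the methods name (0.246).

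For the 3 transfection comparisons together, 0 of 55 member probes were called after pre-miR-197 (background 0.0860% of all probes), 3 after LNA-miR-197 (background 7.99%), all 3 lower, and 0 between LNA-NC and NC (background 0.460%). At an unadjusted p under 0.05 the counts were 16, 14 and 9 of 55, beside 15.8%, 27.5% and 13.3% of all probes. The unadjusted test that the methods name, on the same values, called 0, 2 and 2. Over all 33712 probes it called 557, 1055 and 994.

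GAS5 and SNHG1 gave positive ratios of LNA-miR-197 to LNA-NC in PC14 and PC14CDDP and ratios near or below 0 in A549, and no mean passed the test. SNHG1 stood at 4.70, 4.71, 4.60 and 4.63 in A549 (NC, pre-miR-197, LNA-NC, LNA-miR-197), at 5.41, 5.73, 5.62 and 6.67 in PC14 and at 5.72, 6.18, 6.02 and 7.31 in PC14CDDP. The LNA-miR-197 array was the highest of its line in both PC14 lines. Its log2 ratios were 0.03, 1.05 and 1.29, with a mean of 0.79 ± 0.28 (SE, adjusted p = 0.114). GAS5 stood at 6.68, 6.66, 7.03 and 6.88 in A549, at 6.30, 6.76, 6.54 and 7.15 in PC14 and at 7.15, 7.48, 7.40 and 8.11 in PC14CDDP, with ratios of -0.15, 0.60 and 0.71 (mean 0.39 ± 0.17, adjusted p = 0.190). The difference of the lines in this ratio could not be tested with 1 array per line and transfection. Between lines, GAS5 was 1.80-fold higher in PC14CDDP than in PC14 (adjusted p = 0.00189), a call lost with the adjusted test that the methods name (adjusted p = 0.0598), while A549 and PC14 overlapped (0.12 ± 0.15, adjusted p = 0.490). The probe of the antisense RNA that the array names LOC100506046, which overlaps the GAS5 probe, differed by -0.56 between PC14CDDP and PC14 (adjusted p = 0.0202). SNHG1 was lower in A549 than in PC14 (log2 difference -1.20, adjusted p = 0.00237), and its difference between PC14CDDP and PC14, 0.45 ± 0.24, was not called (adjusted p = 0.161). A dimmer SNHG1 probe just downstream (chr11:62619488-62619547) went the other way, higher in A549 than in PC14 by 1.94, and was well above background on 4, 2 and 0 arrays of A549, PC14 and PC14CDDP, so that it passed the filter through the A549 arrays and 2 dim PC14 values entered that difference.

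The small nucleolar RNA loci within both hosts could be read beside them. After LNA-miR-197, 8 of 8 loci of GAS5 and 8 of 8 of SNHG1 were above LNA-NC in PC14CDDP, with medians of 0.96 and 0.73. Over all probes 50.5% were above there, with a median of 0.01. In PC14 8 of 8 and 6 of 8 were above, with medians of 0.19 and 0.19, and in A549 4 of 8 and 2 of 8, with medians of 0.00 and -0.04. Over all probes 47.5% were above in PC14 and 49.7% in A549. Loci of the same host lie in 1 transcript, so they are not independent. None of the 16 was called over the 3 lines, and whether these probes read the small RNA or unspliced host RNA was not tested. Between lines, 6 of the 8 GAS5 loci were higher in PC14CDDP than in PC14, such as SNORD75 (0.95 ± 0.16, adjusted p = 0.00137) and SNORD44 (0.94), and 0 were lower. Of the 8 SNHG1 loci 1 was called, SNORD27, lower at -1.09 ± 0.12 (adjusted p = 0.000193), and in A549 7 of 8 were lower than in PC14.

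**Figure D4:**
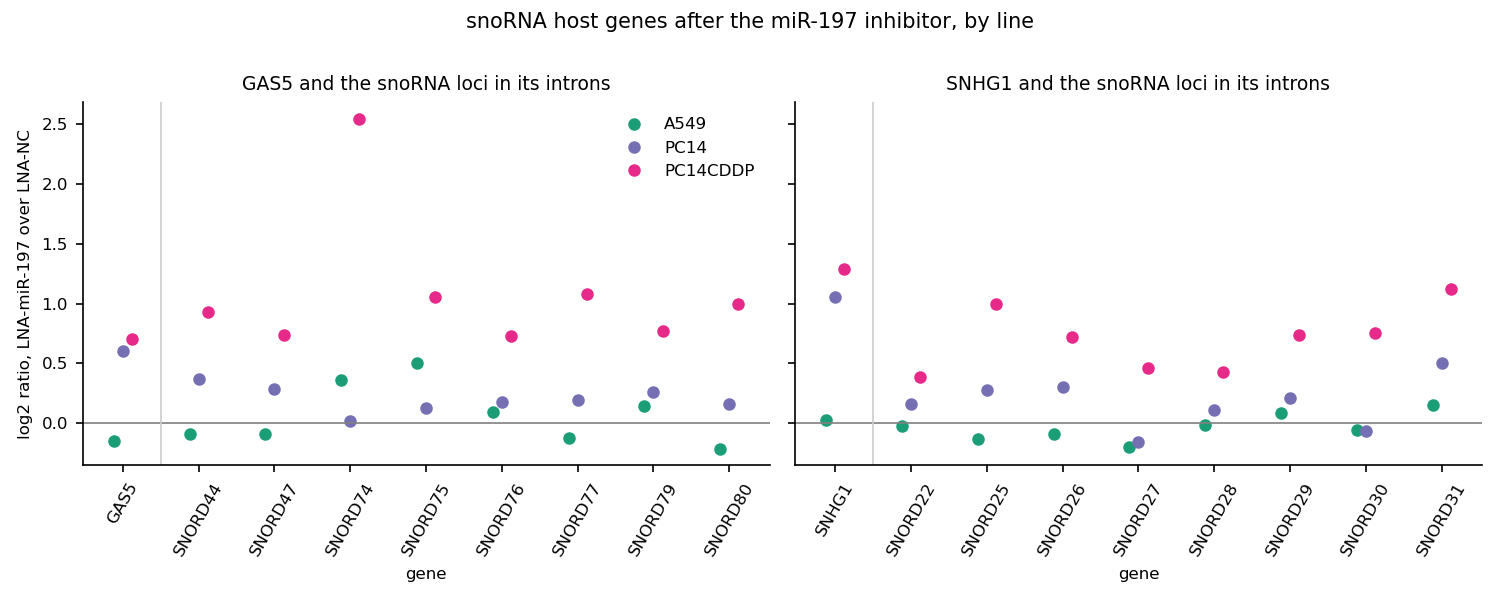
Log2 ratios of LNA-miR-197 to LNA-NC in the 3 lines (coloured points) are plotted for GAS5 and SNHG1, each left of a vertical line, and for 8 small nucleolar RNA loci in the introns of each. All 16 loci lie above 0 in PC14CDDP (0.39 to 2.54), while the A549 points lie between -0.21 and 0.51.

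Of 19 other host genes of small nucleolar RNAs, 3 rose after LNA-miR-197, where 7.99% of all probes were called: EPB41L4A-AS1 (1.02 ± 0.13, adjusted p = 0.0135), SNHG7 (0.90 ± 0.22, adjusted p = 0.0454) and SNHG15 (0.88 ± 0.18, adjusted p = 0.0298), with a list median of 0.37 beside -0.01 over all probes. In PC14CDDP against PC14, 8 were higher and 1 lower, SNHG8 by 1.39 and ZFAS1 by 1.33. In A549 against PC14CDDP, 2 were higher and 12 lower. Of 10 factors of nonsense-mediated decay, which degrades the exons of such hosts, 3 also rose after LNA-miR-197: the helicase UPF1 (0.83 ± 0.15, adjusted p = 0.0230), UPF3A (0.62 ± 0.13, adjusted p = 0.0343) and UPF3B (0.61 ± 0.10, adjusted p = 0.0209). The calls of both lists were lost when any 1 line was left out. In PC14CDDP 6 were higher than in PC14, SMG6 by 1.35, and 0 were lower.

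The HOTAIR probes disagreed on the order of the lines. The brightest probe, whose sequence is shown above, stood at 0.19, 0.46, 0.03 and 0.37 in A549 (NC, pre-miR-197, LNA-NC, LNA-miR-197), at -0.65, -0.62, -0.78 and -0.60 in PC14 and at -0.64, -0.70, -0.64 and -0.44 in PC14CDDP. A549 lay above both other lines without overlap, 1.89-fold over PC14 (adjusted p = 4.38e-05), and PC14 and PC14CDDP overlapped. On this probe, which holds the letters that pair with the miR-197-3p seed, the ratios after pre-miR-197 were 0.28, 0.03 and -0.06 and after LNA-miR-197 0.34, 0.17 and 0.21, with means of 0.08 ± 0.11 and 0.24 ± 0.11 (adjusted p = 0.766 and 0.195). By contrast, the probes at chr12:54356620-54356679 and chr12:54357685-54357744 were well above background on 4 of 4 PC14 arrays, on 0 and 1 of 4 A549 arrays and on 0 of 4 PC14CDDP arrays. On the first, PC14 was at least 2.002-fold higher than PC14CDDP and at least 2.13-fold higher than A549, and it passed the filter only through the PC14 arrays. The probes at chr12:54356557-54356616 and chr12:54356661-54356720 were well above background on 3 of 4 PC14 arrays and no other, and the probe at chr12:54362593-54362652 on 1 PC14 array. A probe that the array names HOTAIR at chr12:54350159-54350218 lies outside the stretch of the others, 8 bases from a HOXC12 probe of the opposite strand that was not above background on any array.

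Of 14 measured HOXC and HOXD genes, 5 were higher and 4 lower in PC14CDDP than in PC14, HOXD11 by 1.57 and HOXC4 by -3.60. In A549 3 were higher and 9 lower than in PC14, with HOXD13 at -6.37. HOTAIR binds the chromatin complexes PRC2 and LSD1-CoREST. Of 10 of their subunit genes, 2 were higher (EZH2, the PRC2 methyltransferase, by 0.71, and EZH1 by 0.29) and 2 lower (RBBP7 by -0.67 and RBBP4 by -0.43) in PC14CDDP than in PC14, and 0 were higher and 7 lower in A549 than in PC14. None of these 24 genes was called after a transfection.

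PVT1, which lies downstream of MYC and hosts several microRNAs, differed by at most 0.85 on the log2 scale between any pair of lines. On its brightest and most 3′ probe (chr8:129113404-129113463) A549 stood at 1.11, 0.97, 1.85 and 0.58 (NC, pre-miR-197, LNA-NC, LNA-miR-197), PC14 at 0.89, 1.37, 1.40 and 1.15 and PC14CDDP at 1.02, 1.55, 2.15 and 0.91. The LNA-NC array was the highest in each line, and the lines overlapped. LNA-miR-197 was lower than LNA-NC there, with ratios of -1.27, -0.25 and -1.24 and a mean of -0.92 ± 0.21 (SE, n = 3 lines, adjusted p = 0.0408), a call lost when any 1 line was left out (adjusted p 0.143 to 0.312) or with no line block (adjusted p of 1). LNA-NC in turn exceeded NC by 0.73, 0.52 and 1.13, a mean of 0.79 ± 0.21 that was not called (adjusted p = 0.165). The levels after LNA-miR-197 differed from those after NC by less than LNA-NC did from either in A549 and PC14CDDP. Over the 11 PVT1 probes, 8 were above NC in all 3 lines after LNA-NC and 6 after pre-miR-197, where 17.2% and 24.4% of all probes were. Between PC14CDDP and PC14 the 4 most 5′ probes were higher in PC14CDDP by 0.46 to 0.85 (adjusted p 0.000777 to 0.0180), and the other 7 ranged from -0.38 to 0.30 with no call.

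The neighbours of the 10 genes included 14 that were measured, of which 6 were higher and 2 lower in PC14CDDP than in PC14 and 7 higher and 5 lower in A549 than in PC14. FRMD8, beside NEAT1, was lower in the resistant PC14CDDP than in parental PC14 (log2 difference -1.15). CYP4F11, of the gene cluster beside UCA1, was higher in A549 than in PC14 by 8.34. Of 15 other cancer-related long noncoding RNAs, 6 were higher and 3 lower in PC14CDDP than in PC14, with FENDRR at 6.08 and MIR155HG at 4.48. MIR31HG was higher in A549 than in PC14 by 7.77. Neither list held a call after any transfection, and no gene of the lists above was called after pre-miR-197 or between LNA-NC and NC.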

How the data were processed

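Total RNA (100 ng) of transfected A549, PC14 and PC14CDDP cells was labelled with Cy3 and hybridised to Agilent human 60-mer arrays by the authors, and spots were read with Agilent Feature Extraction 10.7.3.1 per the labels. The deposited scanner files hold a background-corrected intensity per spot in linear units and flags, and the deposited value table held the same intensity for all 62976 spots. Here each array was centred, as log2 intensity, on its 75th percentile, outlier spots were left out, spots of a probe were averaged, and 33712 probes well above background on at least 3 arrays were fitted with limma 3.58.1 (R 4.3.3) on all 12 arrays, with transfection and line as terms and Benjamini-Hochberg adjustment over all probes. The line served as the replicate block, because arrays of a line share their cells (correlation of deviations within a line 0.845 to 0.947). Probe names are those of the array design, and 37 of the 56 probes matched RefSeq under the same symbol. Differences are log2 and standard errors come from the fit. The number of arrays limits the precision. The alternatives tried were quantile normalisation, the normexp correction (offset 50), the value table, other filters, 1 probe per gene, the arrays compared alone, a trended and robust variance, the methods' t-test, no block, the slide as block, and leaving out a line or a transfection. All 10 members are described by every probe. From each list of other genes, read at the brightest probe, at most 4 called genes per comparison could be named, those with the largest absolute differences. The members and the lists were chosen with earlier results of these data known. A few measured items are not reported here.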

Additional observations from a re-analysis of the deposited data

Results flagged for a closer look

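Among 150 sets of 4 arrays of a line on 1 probe, 7 held an array that stood far from the other 3 by Dixon's ratio of gap to range, and chance gives about 1 in 20. The arrays of a line differ in transfection, so these gaps are not errors by themselves. In 3 of the 7 the array was pre-miR-197 on TUG1, always the lowest: -1.63 against -1.11 to -1.09 in PC14 (ratio 0.949, probe at chr22:31374898), -0.07 against 0.34 to 0.37 in PC14 (0.930, probe at chr22:31375241) and -3.29 against -2.91 to -2.86 in A549 (0.884, probe at chr22:31374937). On PVT1 the array was pre-miR-197 in PC14 (0.38 against 0.15 to 0.17, ratio 0.906), LNA-NC in A549 (-0.89 against -1.72 to -1.63, ratio 0.886) and LNA-miR-197 in PC14CDDP (-0.08 against 0.65 to 0.76, ratio 0.867). On MEG3 it was LNA-miR-197 in PC14CDDP (-0.03 against 0.32 to 0.36, ratio 0.895).

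In 7 of 147 probe comparisons 1 line moved at least 1.5-fold up and another at least 1.5-fold down, and none of these differences was tested, since each line had 1 array per transfection. Both H19 probes rose in A549 and fell in PC14 after LNA-NC against NC, with log2 ratios 3.671 and 3.575 apart, and after pre-miR-197 against NC, 1.429 and 1.405 apart. Both long-transcript NEAT1 probes rose in A549 and fell in PC14CDDP after LNA-NC against NC, 2.370 and 1.410 apart. UCA1 rose in PC14 and fell in PC14CDDP after LNA-miR-197 against LNA-NC, 2.148 apart.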

How the results depend on the processing

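The count of member probes called depended on the setting in the transfection comparisons. For pre-miR-197 against NC, 0 were called in the reported fit and 8 with normexp, 8 with the filter on all 12 arrays and 7 with a trended and robust variance. For LNA-miR-197 against LNA-NC, 3 were called in the reported fit, 6 under each of those 3 settings, 1 with 1 probe per gene, and 0 with no filter, with the compared arrays alone, with the slide as block and with the adjusted t-test. With no replicate block the count there was also 0, and the other 2 transfection counts stayed at 0. Leaving out any line gave 0 to 0 in all 3. LNA-NC against NC gave 2 with the unadjusted t-test, which called 994 of all 33712 probes. Between lines, 1 probe per gene, which tests 10 probes in place of 55, gave 6, 7 and 9 for PC14CDDP against PC14, A549 against PC14 and A549 against PC14CDDP, and the adjusted t-test gave 24, 35 and 26. In the same order, 1 probe per gene called 12121, 17064 and 17618 of all 25037 probes tested. The adjusted t-test called 10851, 20083 and 18810 of all 33712. Leaving out a transfection gave 27 to 35, 36 to 43 and 33 to 39 member probes. Of all 33712 probes it called 12874 to 15165, 19926 to 21690 and 21302 to 22595. Over all probes, pre-miR-197 against NC called 29 as reported and 636 with normexp, 570 with the filter on all 12 arrays, 608 with the trended variance and 3 with no filter, and LNA-miR-197 against LNA-NC called 2694 as reported, 4359, 4295, 4607 and 581 under the same settings, and 3 with no replicate block and 5 with the slide as block. Without any 1 line, and with the compared arrays alone, both called 0 of 33712. Single probes were recomputed only where the reported fit gave an unadjusted p under 0.05 for a transfection or called a gene's brightest probe between lines. Of these values, 770 kept direction and call, 51 lost the call, 35 gained it and 0 changed direction. Settings that alter only the filter, the block or the test leave the difference itself unchanged, and the value table holds the same intensities. Under those settings the direction could not change. The causes were not tested.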

Other observations

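Likeness was read after each line's mean was subtracted, as a description with no test, and the points share lines and slides. The genes below were those with the probe, of any brightness, that followed the member's brightest probe most closely over the 12 arrays. For TUG1 they were YPEL5 (r = 0.988) and HEATR5B (0.969), for GAS5 the host gene ZFAS1 (0.983) and PARP6 (0.975), and for SNHG1 the host gene SNHG20 (0.981) and CCL27 (0.978). MALAT1 was followed by SNORD71 (0.982) and UBE2Q2P1 (0.957), NEAT1 by LINC01530 (0.948) and SYNE4 (0.947), and H19 by IL32 (0.946) and ARHGAP45 (0.922). MEG3 was followed by LOC100507351 (0.977) and EBPL (0.974), HOTAIR by LANCL3 (0.959) and LINC01122 (0.946), and PVT1 by QRICH2 (0.964) and RAPGEFL1 (0.963). UCA1 was left out because its probe was well above background on 11 of 12 arrays.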
